A study of Homo sapiens with 4 samples.

Results

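Genes that mark immature progenitors and leukemia stem cells were examined in OCI-AML3 cells 3 days after CRISPR editing aimed at mtNPM1, the mutant nucleophosmin of NPM1-mutated AML. The 10 genes were CD34, SOX4, SATB1, ADGRG1, LAPTM4B, SOCS2, CDK6, MMRN1, EMP1 and PROM1, taken as named markers and found in the count table by Ensembl identifier with the version number removed. All 10 were found among the 58037 genes of the table. OCI-AML3 is an established human AML line that carries a heterozygous NPM1 mutation together with mutant DNMT3A and NRAS, and both conditions share these. Cells were transfected with sgNPM1A, which is directed at the mutant NPM1 allele, or with sgRNA Ctrl, named sgNeg in the labels, and harvested after 72 hours. There were 2 libraries per condition and 4 in all, each from a transfected pool of cells and not from a clone. The share of edited cells in each pool is not given in the sources used here.

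Leukemia stem cells are the AML cells that can regrow the disease, and they share surface proteins and regulators with normal hematopoietic stem and progenitor cells. Normal progenitors lose most of these genes as they mature into granulocytes and monocytes. NPM1-mutated AML is known for low or absent CD34 on its blasts and for high HOXA9 and MEIS1, a pair of stem cell transcription factors.

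In these cells 3 of the 10 genes fell in sgNPM1A: SOX4 to 36.0% of its level in sgRNA Ctrl, SATB1 to 50.1% and CDK6 to 56.7%. None was called higher. LAPTM4B, SOCS2 and EMP1 were tested and not called, and CD34, ADGRG1, MMRN1 and PROM1 had too few counts to be tested. Calls needed an adjusted p under 0.05 and a log2 fold change of at least 0.32 in size. By this threshold 10.3% of the 15718 tested genes were called lower and 10.5% higher, against 3 and 0 of the 6 tested markers. The median log2 fold change was -0.82 over the 6 tested markers and 0.00 over all tested genes, whose median absolute change was 0.22. The 2 libraries of one condition lay wholly above or below those of the other for all 6 tested markers, which was also true of 63.1% of all tested genes. In RNA from a pool of cells, fewer cells with a transcript and less of it per cell cannot be told apart. The study calls the libraries biological replicates but the labels do not say how they were separated, so the p-values measure the spread between these libraries.

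Read totals were alike. Libraries held from 25069484 to 28276391 counts, and 3 counts corresponded to 0.108 to 0.118 CPM, the count scaled to library size by TMM. NPM1 (ENSG00000181163.13), which the guide targets, was at 1319 and 1385 CPM in sgRNA Ctrl and at 1189 and 1132 CPM in sgNPM1A, a log2 fold change of -0.22 (SE 0.07, edgeR adjusted p = 0.0360), which was under the fold threshold. Both alleles are summed in this count, so it does not check the loss of the mutant allele by itself. As a check of cell type, all 7 myeloid identity genes passed the filter on low counts, and together they summed to 1247 to 1251 CPM in sgRNA Ctrl and 4038 to 4754 CPM in sgNPM1A. Without LYZ the sum was 980 to 1032 CPM in sgRNA Ctrl and 1386 to 1396 CPM in sgNPM1A. Markers of other cells were at or near 0, with summed levels of at most 0.0386 CPM for T cells, 0.180 CPM for endothelial cells, 1.04 CPM for stromal cells, 1.22 CPM for erythroid cells, 2.56 CPM for B cells and 4.86 CPM for megakaryocytes.

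The label of stem cell markers held only in part. Transcripts of the surface proteins by which such cells are sorted, CD34, PROM1 and ADGRG1, were at or near 0 in all 4 libraries. Reads on the 10 genes made up 0.115% and 0.111% of all counts in sgRNA Ctrl and 0.0656% and 0.0642% in sgNPM1A. SOX4, SATB1, CDK6 and LAPTM4B held between 99.7% and 99.8% of these reads. The summed level of the 10 genes was 1132 and 1096 CPM in sgRNA Ctrl and 666 and 652 CPM in sgNPM1A, and is therefore a sum of these 4 genes.

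**Figure D1:**
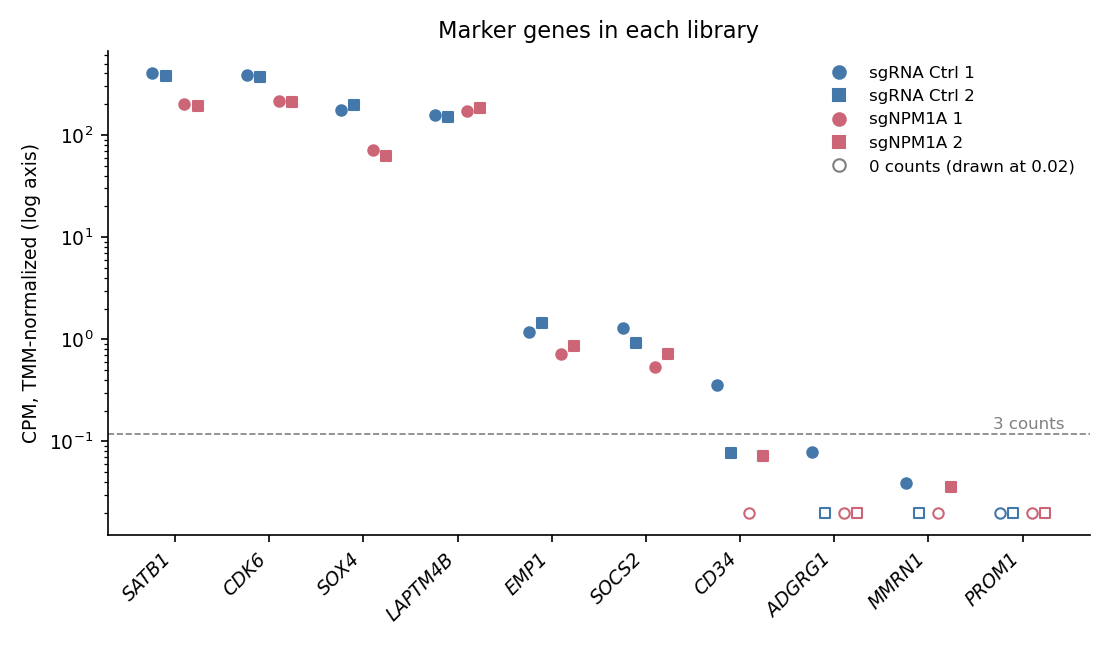
Level of each of the 10 marker genes in the 4 libraries, in CPM on a log axis, with sgRNA Ctrl (sgNeg) and sgNPM1A in different colours. Open markers stand for libraries with 0 counts and the dashed line for 3 counts. SOX4, SATB1 and CDK6 sit lower in both sgNPM1A libraries, LAPTM4B slightly higher, and CD34, ADGRG1, MMRN1 and PROM1 under the line except for CD34 in 1 sgRNA Ctrl library.

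The start sites of the 3 genes that fell together are given here because HOXA9 and MEIS1 fell in the same libraries and bind DNA through short motifs. Each line runs from 250 bases before to 50 bases after the start, 5′ to 3′ on the strand of the gene, from RefSeq on GRCh38.p14, with the outermost start where a gene has several. Motif matches on either strand are in capitals and all other bases in lower case. The SOX4 window is chr6:21593501-21593800 on the plus strand, the SATB1 window chr3:18445543-18445842 on the minus strand and the CDK6 window chr7:92836524-92836823 on the minus strand.
SOX4: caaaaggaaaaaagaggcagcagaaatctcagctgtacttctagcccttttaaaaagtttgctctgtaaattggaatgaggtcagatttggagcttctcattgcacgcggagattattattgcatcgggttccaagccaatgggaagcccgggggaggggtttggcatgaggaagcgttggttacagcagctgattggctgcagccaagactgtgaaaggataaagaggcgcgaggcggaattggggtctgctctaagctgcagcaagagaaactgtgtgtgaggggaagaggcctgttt
SATB1: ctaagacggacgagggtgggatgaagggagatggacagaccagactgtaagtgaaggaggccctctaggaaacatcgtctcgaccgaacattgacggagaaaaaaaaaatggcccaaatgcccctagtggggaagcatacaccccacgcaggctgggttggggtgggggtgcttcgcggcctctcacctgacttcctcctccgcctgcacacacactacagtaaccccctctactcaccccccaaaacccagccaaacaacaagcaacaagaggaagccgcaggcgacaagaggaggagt
CDK6: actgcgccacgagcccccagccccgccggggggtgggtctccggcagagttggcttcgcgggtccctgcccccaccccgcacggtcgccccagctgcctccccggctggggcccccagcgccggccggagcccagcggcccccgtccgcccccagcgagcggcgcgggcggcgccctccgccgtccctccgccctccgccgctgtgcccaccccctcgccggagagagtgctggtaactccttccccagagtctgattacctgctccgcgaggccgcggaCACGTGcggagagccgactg
The motifs searched were TGACAG for MEIS factors, TGATNNAT for HOX-PBX pairs and the E-box CACGTG, which MYC binds. The letters TGACAG were in 15.8% of all 35116 promoters of the table, TGATNNAT in 7.4% and CACGTG in 7.26%. SOX4 and SATB1 held none of the 3 motifs in these windows, and CDK6 held a single E-box beginning 31 bases after the start. A match is a description of the letters, and a window without one says only that they are not within these 300 bases. The windows differ in base composition, with a GC content of 49.3% for SOX4, 56.7% for SATB1 and 78% for CDK6, beside a median of 58.7% over all promoters. No promoter of SOCS2 or LAPTM4B was analysed here, and 18 promoters of the other 8 genes were. Among them the HOX-PBX letters were found at EMP1 and the MEIS letters at ADGRG1, a gene near 0 in these cells.

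SOX4 (ENSG00000124766.6, chr6:21593751-21598619 of GRCh38, plus strand) encodes a transcription factor with an HMG box that binds DNA and is known to hold back differentiation in myeloid leukemia. Its level was 176 and 195 CPM in sgRNA Ctrl and 71.6 and 62.0 CPM in sgNPM1A. Both sgNPM1A libraries lay far below both sgRNA Ctrl libraries. The means were 186 ± 13.3 and 66.8 ± 6.78 CPM (SD, n = 2 libraries each), a log2 fold change of -1.47 (SE 0.09, 95% interval -1.66 to -1.29, edgeR adjusted p = 4.75e-07), or 2.78-fold lower. The 2 libraries of a condition differed by 0.15 in sgRNA Ctrl and by -0.21 in sgNPM1A on the log2 scale, libraries numbered 2 minus those numbered 1. Among the 15718 tested genes this fall had rank 293 by size. SOX4 belongs to a set of HOXA9/MEIS1 target genes, and the study itself reported its fall from these libraries. Its fall here is therefore not independent evidence of a direction. The gene has 1 exon, and 168 of its exon bases lie opposite ENSG00000283480, which had at most 3 counts in any library.

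SATB1 (ENSG00000182568.16, chr3:18345377-18445592, minus strand) encodes a nuclear protein that anchors and loops chromatin at AT-rich stretches and is known in T cells and blood stem cells. It was at 406 and 381 CPM in sgRNA Ctrl and at 202 and 192 CPM in sgNPM1A. The conditions did not overlap, and the libraries within each differed little. The means were 394 ± 18.1 and 197 ± 7.54 CPM, a log2 fold change of -0.998 (SE 0.07, 95% interval -1.15 to -0.85, edgeR adjusted p = 1.64e-06), with rank 588 among the falls. SATB1 shares 211 exon bases, 1.43% of its exon length, with TBC1D5, a gene next to it on the same strand. TBC1D5 had 3725 and 3069 counts in sgRNA Ctrl and 2847 and 2939 in sgNPM1A, beside 10333 and 9864 against 5642 and 5324 for SATB1. SATB1-AS1, the antisense transcript, shares no exon base with SATB1 and stood at 301 and 319 counts in sgRNA Ctrl and at 382 and 313 in sgNPM1A.

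CDK6 (ENSG00000105810.9, chr7:92604921-92836573, minus strand) encodes the kinase that pairs with D cyclins to drive cells through G1, and it also governs how stem cells leave quiescence. Its level was 389 and 369 CPM in sgRNA Ctrl and 217 and 212 CPM in sgNPM1A. The libraries of a condition lay close together and the conditions far apart. The means were 379 ± 14.4 and 215 ± 3.30 CPM, a log2 fold change of -0.82 (SE 0.07, 95% interval -0.96 to -0.68, edgeR adjusted p = 4.93e-06), or 1.77-fold lower, with rank 842 among the falls. The interval of CDK6 lies above that of SOX4, and the intervals of CDK6 and SATB1 overlap. CDK6-AS1, an antisense transcript over the gene, had 47 and 63 counts in sgRNA Ctrl and 7 and 19 in sgNPM1A, and fell by 2.19 on the log2 scale (edgeR adjusted p = 0.00130). It shares 86 exon bases with CDK6, 0.703% of its exon length. Whether the counting used strand is not given in the sources used here, so reads on those bases cannot be assigned to one of them.

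SOCS2 (ENSG00000120833.13, chr12:93569969-93626236) encodes a feedback inhibitor of cytokine and growth hormone signalling that JAK-STAT5 activity induces. It had 33 and 24 counts in sgRNA Ctrl and 15 and 20 in sgNPM1A, or 1.30, 0.927, 0.538 and 0.720 CPM in the same order. The conditions did not overlap, but their nearest libraries were 24 and 20 counts. The log2 fold change was -0.82 (SE 0.34, 95% interval -1.56 to -0.08, edgeR adjusted p = 0.0998), and the gene was not called. Its value was close to that of CDK6, with a wider interval that lay below 0, and it missed the threshold after adjustment over all tested genes. Leaving out 1 library moved the value between -1.04 and -0.56, with no call. SOCS2-AS1, opposite 277 of its exon bases, had 2 to 5 counts.

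LAPTM4B (ENSG00000104341.16, chr8:97775788-97853013, plus strand) encodes a transmembrane protein of late endosomes and lysosomes. It was at 157 and 149 CPM in sgRNA Ctrl and at 173 and 184 CPM in sgNPM1A. Both sgNPM1A libraries lay above both of sgRNA Ctrl, by a small margin. The means were 153 ± 5.71 and 179 ± 7.63 CPM, a log2 fold change of 0.22 (SE 0.07, 95% interval 0.07 to 0.37, edgeR adjusted p = 0.0316), and the fold of 1.17 missed the threshold. Of the 6 tested markers it was the one with a positive value. With the replicate block its adjusted p was 0.119, and DESeq2 gave 0.0516. LAPTM4B shares 4.66% of its 50-base exon words with other genes, pseudogenes such as LAPTM4BP2 among them, and reads on those words cannot be assigned to a single gene.

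EMP1 (ENSG00000134531.9, chr12:13196726-13219941) encodes a small membrane protein of the PMP22 family. It had 30 and 37 counts in sgRNA Ctrl and 20 and 24 in sgNPM1A, or 1.18, 1.43, 0.718 and 0.864 CPM in the same order. The conditions did not overlap. The log2 fold change was -0.72 (SE 0.29, 95% interval -1.37 to -0.07, edgeR adjusted p = 0.0969), and the gene was not called. By mean level EMP1 stood at percentile 17.23 and SOCS2 at percentile 14.87 of the tested genes, and their fold changes had standard errors of 0.29 and 0.34, against 0.07 to 0.09 for SOX4, SATB1, CDK6 and LAPTM4B.

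**Figure D2:**
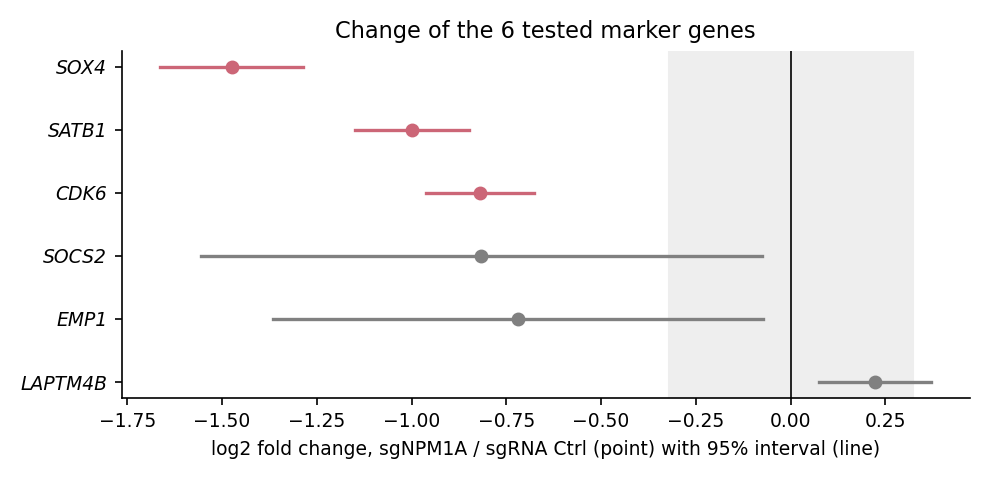
Log2 fold change of each tested marker gene, sgNPM1A minus sgRNA Ctrl, with its 95% interval from edgeR. The grey band covers folds under the threshold. SOX4, SATB1 and CDK6 lie left of the band with short intervals, LAPTM4B lies within it, and the intervals of SOCS2 and EMP1 are wide.

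CD34 (ENSG00000174059.16, chr1:207880972-207911125), the sialomucin used to sort blood progenitors, had 9 and 2 counts in sgRNA Ctrl and 0 and 2 in sgNPM1A. A single library held 9 of the 13 counts. Summed over libraries, 11 counts stood against 2, a ratio of rates of 0.168 with a 95% exact interval of 0.0181 to 0.768 that covers counting error only. Without that library 2 counts in sgRNA Ctrl stand beside 0 and 2 in sgNPM1A. In a fit without a filter on low counts the edgeR adjusted p was 0.121. PROM1 (ENSG00000007062.11, chr4:15968228-16084023), the pentaspan antigen CD133, had 0 counts in all 4 libraries, which allows up to 3 counts per library. ADGRG1 (ENSG00000205336.11, chr16:57619738-57665567), the adhesion receptor GPR56 found on leukemia stem cells, had 2 counts in one sgRNA Ctrl library and 0 in the other 3. MMRN1 (ENSG00000138722.9, chr4:89879511-89954614), a secreted protein of platelets and endothelium, had 1 count in a single library of each condition. CD34 did not pass the filter on low counts, and its difference rests on a single sgRNA Ctrl library. For PROM1, ADGRG1 and MMRN1 no change was detectable at this depth.

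Divided by exon length, which lets genes be compared, LAPTM4B had the highest level in sgRNA Ctrl with 47.9 ± 1.79 CPM per kb, followed by SOX4 with 38.1 ± 2.73, CDK6 with 31.0 ± 1.17 and SATB1 with 26.6 ± 1.23 CPM per kb. In sgNPM1A the order was LAPTM4B with 55.8 ± 2.39, CDK6 with 17.5 ± 0.270, SOX4 with 13.7 ± 1.39 and SATB1 with 13.3 ± 0.510 CPM per kb. SOX4 thus moved from above CDK6 to below it, while SOX4 and SATB1 in sgNPM1A differed by less than their SD. The next genes were far lower, SOCS2 at 0.172 and EMP1 at 0.167 CPM per kb in sgRNA Ctrl, and these did not differ beyond their SD of 0.0406 and 0.0224. Exon lengths are merged exons of all annotated transcripts, and the lengths in use in these cells were not measured.

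**Figure D3:**
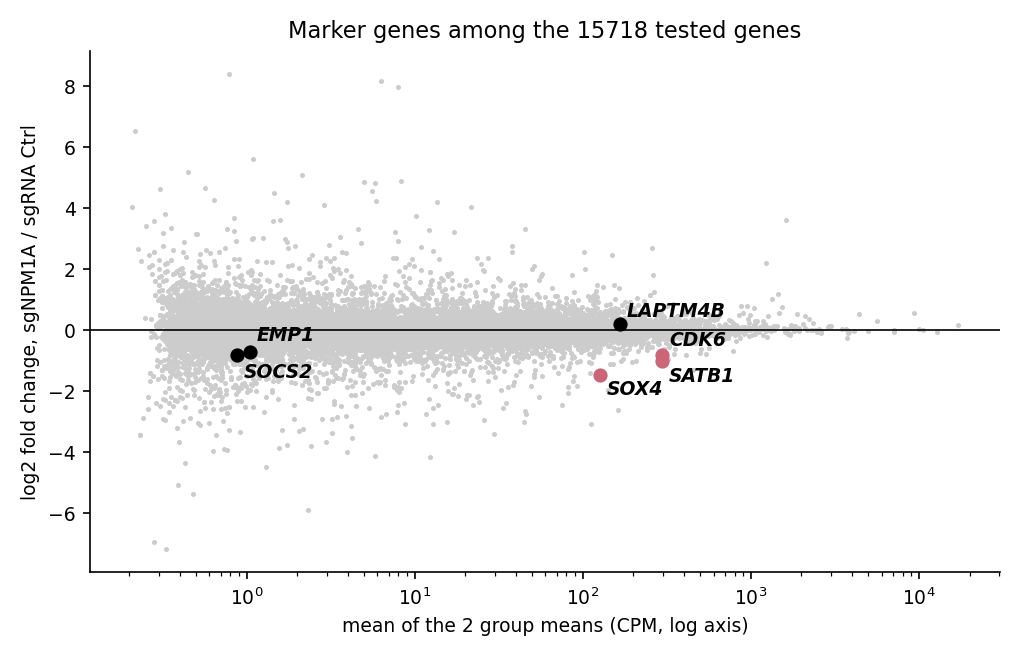
Log2 fold change of every tested gene (y axis) against its mean level in CPM on a log axis (x axis), with the tested marker genes named, in red where called. SOX4, SATB1 and CDK6 lie among the abundant genes that fell, and SOCS2 and EMP1 among genes of low level where the spread is wide.

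The genes whose pattern over the 4 libraries was nearest to SOX4, by distance between centred log2 CPM among the 10180 genes averaging 5 CPM or more, were ADGRA3, IL1B and MEF2C. Their distances were 0.0433, 0.0501 and 0.0619 and their log2 fold changes -1.50, -1.45 and -1.51. IL1B encodes the inflammatory cytokine interleukin-1β and MEF2C a MADS-box transcription factor. Nearest to SATB1 were ODAD2, CHST11 and TGFBR1, at distances of 0.0188, 0.0246 and 0.0308 and with a log2 fold change of -0.99 each. TGFBR1 is a receptor of TGF-β. The genes were picked for this likeness, so their falls are a description.

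Of 25 close relatives and partners of the markers, 19 were tested, 3 were lower, 1 was higher and 15 were not called, with a median log2 fold change of -0.16. These counts are near the 10.3% called lower and 10.5% called higher over all tested genes, and the genes named here are given for their own values. For SOX12, of the same SOX subgroup as SOX4, the values were 175 and 168 CPM against 192 and 189 CPM, and it was not called (log2 fold change 0.15, adjusted p = 0.102). SOX11 had 0 counts in all libraries.

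The kinase partners of CDK6 split. CCND1, cyclin D1, was at 47.4 and 43.5 CPM in sgRNA Ctrl and at 28.0 and 25.5 CPM in sgNPM1A, a log2 fold change of -0.76 (SE 0.09, edgeR adjusted p = 8.32e-05). CCND3, cyclin D3, was at 288 and 263 CPM against 277 and 288 CPM, and overlapped between conditions. CDK4, the other kinase of the D cyclins, was at 134 and 139 CPM against 145 and 147 CPM. Neither was called, with log2 fold changes of 0.04 (95% interval -0.11 to 0.19) and 0.09 (-0.05 to 0.24).

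Among SOCS relatives CISH, another STAT5 target and feedback inhibitor, rose from 12.5 and 11.9 CPM to 26.0 and 24.2 CPM (log2 fold change 1.04, SE 0.10, edgeR adjusted p = 2.19e-05). SOCS6 was at 10.5 CPM in both sgRNA Ctrl libraries and at 6.28 and 7.06 CPM in sgNPM1A, a log2 fold change of -0.66 (SE 0.13, adjusted p = 0.00326). CISH thus went up while SOCS6 went down. SOCS1, SOCS3, SOCS4, SOCS5 and SOCS7 were not called. In the LAPTM family the log2 fold change was -0.29 for LAPTM4A (adjusted p = 0.0198, under the fold threshold) and 0.17 for LAPTM5 (adjusted p = 0.102), and neither was called. EMP2, EMP3, PODXL and PODXL2, which are kin of EMP1 and CD34, and ADGRG5 were not called either.

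**Figure D4:**
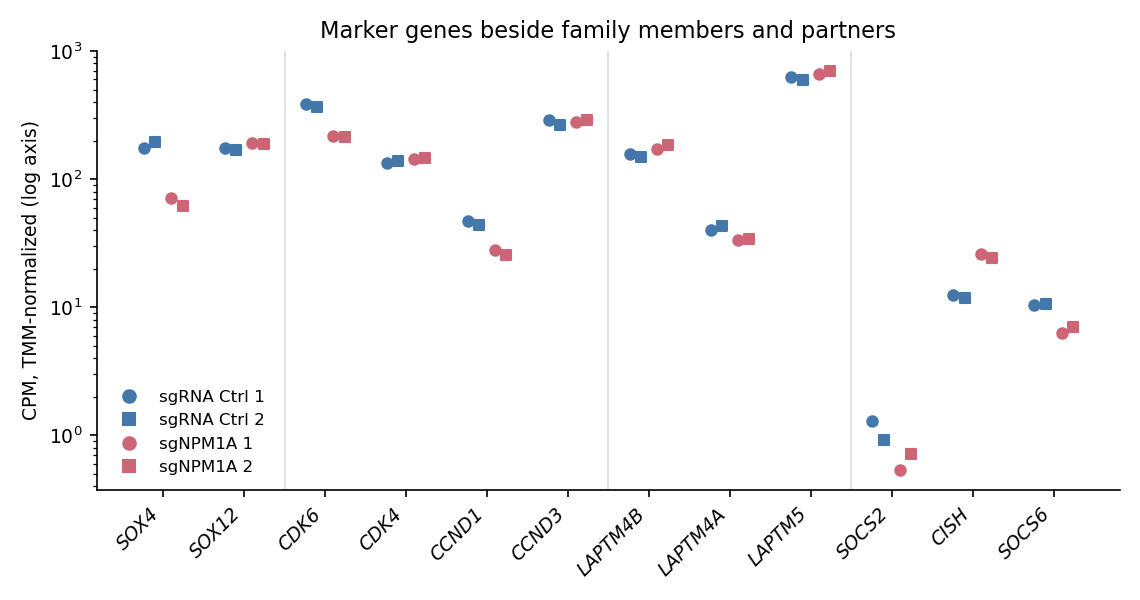
Level in CPM, on a log axis, of SOX4, CDK6, LAPTM4B and SOCS2 beside their relatives and partners in each of the 4 libraries, coloured by condition. SOX4, CDK6 and CCND1 drop, SOX12, CDK4 and CCND3 lie close to equal in both conditions and were not called, and CISH rises.

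Other leukemia stem cell genes were read against the same shares, 10.3% lower and 10.5% higher over all tested genes. The 17-gene leukemia stem cell score, a published expression score of AML fractions that engraft in mice, contains 7 of the 10 markers. Of its 17 genes 12 were tested, 5 were lower, 1 was higher and 6 were not called, and the median log2 fold change was -0.74. The score itself was not computed, and these unweighted counts and this median do not give its direction. Of the 10 score genes that are not markers here, 8 were tested, 4 fell and 1 rose, the last being near the share over all genes. AKR1C3, an aldo-keto reductase, fell by 1.87 on the log2 scale from 10.8 and 14.2 CPM to 3.91 and 2.92 CPM (adjusted p = 2.43e-05, edgeR). NYNRIN (-1.47, edgeR adjusted p = 0.0221), ARHGAP22 (-1.18, adjusted p = 0.00261) and CPXM1 (-0.75, adjusted p = 0.0201) also fell. NYNRIN had 32 and 22 counts in sgRNA Ctrl and 14 and 7 in sgNPM1A, so only sgRNA Ctrl had both libraries at 10 counts or more. With at least 10 counts required in every library, 3 of the score genes outside the markers were called lower. DPYSL3 rose from 33 and 17 counts to 67 and 47, a log2 difference of 1.07 (edgeR adjusted p = 0.0319). DESeq2 did not call NYNRIN, CPXM1 or DPYSL3 (adjusted p = 0.104, 0.0597 and 0.0957). The call of NYNRIN was also lost without sgRNA Ctrl library 1 (-1.16) or sgNPM1A library 2 (-1.06), that of CPXM1 without sgRNA Ctrl library 2 (-0.47), and that of DPYSL3 without sgRNA Ctrl library 2 (0.66) or sgNPM1A library 1 (0.80). DNMT3B, ZBTB46 and BEX3 were not called.

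Of 20 surface antigens used to find leukemia stem cells, 12 were tested, 5 rose, 1 fell and 6 were not called, with a median log2 fold change of 0.14. Over all tested genes 10.5% were called higher and 10.3% lower, and the 1 fall is near that share. CD70 rose from 67.4 and 70.8 CPM to 169 and 171 CPM (log2 fold change 1.30, edgeR adjusted p = 2.22e-07) and FLT3, the receptor tyrosine kinase of progenitors, from 10.8 and 9.15 CPM to 20.2 and 20.9 CPM (1.04, adjusted p = 5.73e-05). CLEC12A, a lectin of myeloid cells and AML blasts, had 4 and 5 counts in sgRNA Ctrl and 95 and 89 in sgNPM1A (4.20, adjusted p = 3.62e-06). It passed the filter on low counts only through sgNPM1A, and with at least 10 counts required in every library 4 antigens were called higher. CD38, low on the cells sorted as stem cells, and IL1RAP rose, by 0.68 (adjusted p = 0.000270) and 0.84 (adjusted p = 0.00789) on the log2 scale. CD44, the hyaluronan receptor, was the antigen that fell, from 220 and 219 CPM to 135 and 133 CPM (-0.71, adjusted p = 1.13e-05). Of the 8 that were not tested, IL3RA belongs to the 45 pseudoautosomal genes with a row for each copy, of which 44 had 0 counts on both rows, so its zeros say nothing of its level. CD99 is another of the 45 and had 6 to 14 counts, and without it the median of the other 11 tested antigens was 0.22.

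Of 20 genes of immature hematopoietic cells, 10 were tested, 3 fell, 1 rose and 6 were not called, with a median of -0.26, beside 10.3% lower and 10.5% higher over all tested genes. The 1 rise is near that share. HOXA9 fell from 56.3 and 62.2 CPM to 19.2 and 17.5 CPM (log2 fold change -1.69, edgeR adjusted p = 3.21e-07) and MEIS1 from 38.0 and 37.2 CPM to 8.43 and 5.26 CPM (-2.46, adjusted p = 1.13e-06). ERG, an ETS factor of stem cells, fell by 0.54 (adjusted p = 0.0251), a call lost with DESeq2 (adjusted p = 0.0718) and without library 1 of sgRNA Ctrl (-0.36) or of sgNPM1A (-0.50). GATA2 rose from 1.77 and 2.16 CPM to 4.38 and 4.36 CPM (1.15, adjusted p = 0.00104). HOXA9 and MEIS1 were known to fall in these libraries when the list was written, so they are not independent evidence of its direction. HLF, MECOM, HOPX, SPINK2, CRHBP, AVP, TEK and PRDM16, 8 of the 20, were at 0 counts in all 4 libraries.

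Genes of myeloid maturation moved in the same libraries as the fall of SOX4, SATB1 and CDK6. Of 20 listed, 19 were found and 16 tested, and 11 rose, 2 fell and 3 were not called, with a median log2 fold change of 1.62. Beside these stand 10.5% called higher and 10.3% called lower over all tested genes, and the 2 falls are near that share. CEBPE (6 and 4 counts against 15 and 17) and FPR1 (5 and 6 against 64 and 83) passed the filter only through sgNPM1A, and with at least 10 counts in every library 9 rose. The call of CEBPE was also lost with DESeq2 (adjusted p = 0.234) and without any 1 of the 4 libraries, with log2 values of 1.27 to 1.87. Their summed level was 1064 to 1113 CPM in sgRNA Ctrl and 4125 to 4971 CPM in sgNPM1A. LYZ, lysozyme, made up most of the sum in sgNPM1A and rose from 271 and 215 CPM to 2643 and 3367 CPM (log2 fold change 3.63, edgeR adjusted p = 3.94e-08). S100A9 rose from 61.7 and 73.8 CPM to 410 and 482 CPM (2.72), S100A8 from 26.3 and 32.3 CPM to 164 and 183 CPM (2.57) and CSF3R, the G-CSF receptor, from 88.0 and 92.2 CPM to 234 and 243 CPM (1.40). FCGR1A, an Fc receptor, and CSF1R, the M-CSF receptor, rose by 1.71 and 1.22 on the log2 scale. CD163, a scavenger receptor of macrophages, fell from 27.5 and 27.9 CPM to 3.48 and 3.46 CPM (-3.00, adjusted p = 4.51e-08), and MMP8, a collagenase of neutrophil granules, fell as well (-1.53, adjusted p = 0.00107). The part of this shift in the fall of SOX4, SATB1 and CDK6 was not tested.

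**Figure D5:**
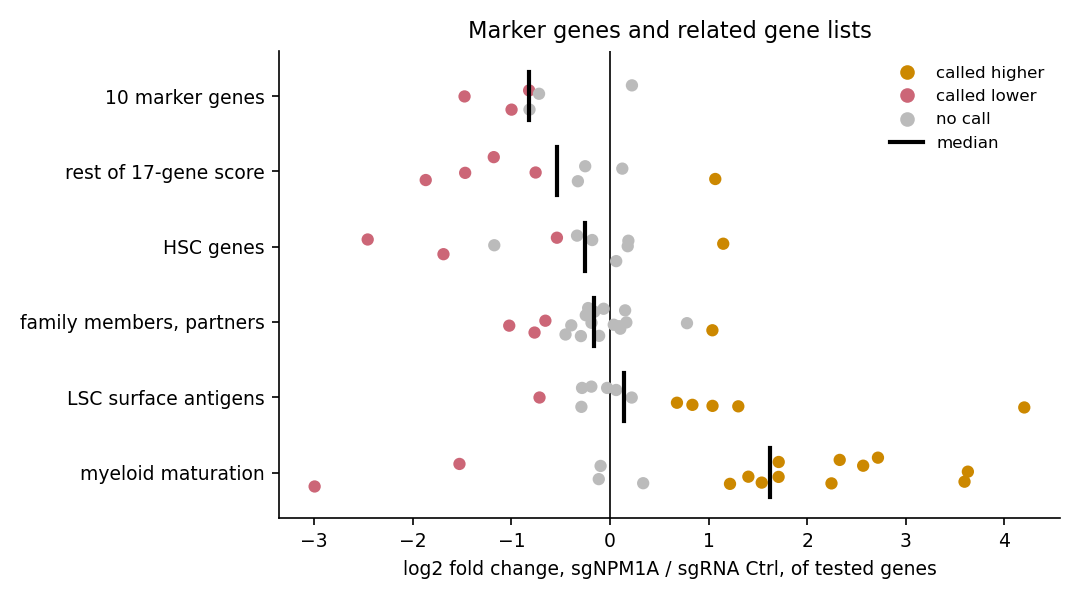
Log2 fold change, sgNPM1A minus sgRNA Ctrl, of each tested gene of the markers and of the other lists, with 1 row per list, 1 point per gene, coloured by call, and the median of each list as a black bar. The medians are -0.82 for the markers, -0.54 for the other genes of the 17-gene score, 0.14 for surface antigens, -0.26 for genes of immature cells, -0.16 for relatives and partners and 1.62 for myeloid maturation.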

How the data were processed

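RNA of OCI-AML3 cells was sequenced from 2 sgRNA Ctrl and 2 sgNPM1A libraries, grouped by the labels. The authors mapped read pairs to hg38 with STAR and Samtools and deposited raw read counts per Ensembl gene, without normalization; the counting program, its use of strand and the annotation are not given in the sources used here. The labels give alpha-MEM as the medium and the paper RPMI.

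The counts were analysed with edgeR 4.0.16 in R 4.3.3: filterByExpr (minimum count 10), TMM normalization, robust quasi-likelihood F test, Benjamini-Hochberg adjustment over all 15718 tested genes, two-sided. Values in CPM are TMM-normalized, and centred log2 CPM use a prior count of 2. The threshold was an adjusted p of 0.05 and a fold of 1.25. An exact permutation of 2 libraries against 2 cannot give a p below 0.333, so the model across all genes was used. The script was tested on simulated data. Symbols were found for 55646 genes. Positions and promoters are RefSeq on GRCh38.p14; exon lengths, overlaps and shared words of 50 bases come from GENCODE models on another build and carry no coordinates here.

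Alternatives were DESeq2 1.42.0, limma-trend (limma 3.58.1) on quantile-normalized log2 CPM, no filter, at least 10 counts in every library, size factors by RLE, no normalization beyond library size, a replicate block, no fold threshold, a fold of at least 2, and leaving out each library in turn, which assumes that the lone library varies like the others. The marker genes and gene lists were chosen with earlier results of these data known. Named genes were the markers, NPM1, tested relatives and partners, called genes of the other lists (at most 6 per direction by adjusted p), genes annotated over a marker, and for the 2 markers with the smallest adjusted p the 3 genes nearest in pattern. Not every gene covered by this rule is reported, and 1 called gene among the relatives and partners is counted but not reported here.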

Additional observations from a re-analysis of the deposited data

How the results depend on the processing

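SOX4, SATB1 and CDK6 kept their direction under all 14 alternatives, with log2 fold changes of -1.58 to -1.37, -1.04 to -0.95 and -0.86 to -0.78. Alternatives that changed only the fold threshold reused the main fit, so a direction could not change in them. A fold of at least 2 ended the calls of SATB1, just under that fold, and CDK6, and left 1 marker lower, with 498 genes called higher and 502 lower in all, 3 surface antigens higher and 0 lower, and 1 relative or partner lower. Without a fold threshold 1 marker was called higher, LAPTM4B, and 2 antigens were lower, CD93 beside CD44; library size alone also gave 2 antigens lower. DESeq2 called 0 other genes of the 17-gene score higher and 2 lower. Leaving out 1 library gave 0 to 1 of these higher, DPYSL3 being lost without sgRNA Ctrl library 2 or sgNPM1A library 1, and 1 to 2 antigens lower, with 2 without library 2 of either condition. The replicate block called 1637 genes higher and 1604 lower, with 3 markers lower and 0 higher. Same-numbered libraries did not deviate together, so the numbers were not taken as pairs. The r of deviations from the condition means was -0.130 over 15718 genes and -0.523 over the 8856 above 10 CPM. A negative r means that libraries with unlike numbers deviated together across conditions, more so above 10 CPM. The main fit, by condition alone, does not model this. A crossed replicate block, chosen after the data were seen, called 1955 genes higher and 1918 lower, with the markers at 3 lower and 0 higher. No direction of a marker reversed. Depth limits CD34, ADGRG1, MMRN1 and PROM1, which had 9 counts or fewer in every library.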
